A study of Homo sapiens with 14 samples.

Results

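The NODAL and LEFTY pathway loci are 9 human genes that encode parts of the NODAL branch of TGF-β signalling and its feedback: NODAL, LEFTY1, LEFTY2, TDGF1, GDF3, CER1, SMAD7, SKIL and ACVR2B. The genes were chosen by name from the 20033 protein-coding genes of GENCODE release 44, and their occupancy by chromatin remodelers and by SOX2 was read from peak lists. Each locus is the hg38 gene body with 60 kb on either side. LEFTY1 and LEFTY2 are neighbours and were read together, which leaves 8 loci of 123 to 175 kb and 1158 kb in all.

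NODAL is a secreted ligand that binds an activin receptor together with the co-receptor CRIPTO, the product of TDGF1, and leads to phosphorylation of SMAD2 and SMAD3. The SMAD proteins act on DNA with partners such as the forkhead factor FOXH1, and NODAL itself and its inhibitors LEFTY1 and LEFTY2 are classical targets of this route, so that the pathway feeds back on itself. In conventional human embryonic stem cells (hESCs), activin and NODAL signals sustain pluripotency.

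The study profiled WIBR3, an established hESC line, by chromatin immunoprecipitation and sequencing (ChIP-seq) in 2 culture conditions. Primed cells were grown in medium with fetal bovine serum, KnockOut Serum Replacement and FGF2. Naïve cells were grown in serum-free 5i/L/A medium, which holds the inhibitors PD0325901, IM-12, SB590885, WH4-023 and Y-27632 together with LIF and Activin A, a ligand that uses the same receptor family as NODAL. Both were kept on mouse embryonic fibroblast feeder cells. Naïve cells were obtained by conversion of primed cells and expanded as a polyclonal population.

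Of the targets, BRG1 and BRM, products of SMARCA4 and SMARCA2, are ATPases that replace each other in the nucleosome-remodelling BAF complex. BAF155 (SMARCC1) is its scaffold, and SOX2 is a core pluripotency factor. There was 1 peak list for each antibody and state. Lists of a second SOX2 library gave identical positions in either state and were not counted again, so no value has a replicate error and no test between states was made. The lists held 57884 BRG1, 62338 BAF155, 17413 BRM and 1940 SOX2 peaks in naïve cells and 15611 BRG1, 58352 BAF155 and 9290 SOX2 peaks in primed cells. The lists hold no read totals, and the part of depth in the length of a list was not tested. As a check of the labels by occupancy alone, all 4 windows of naïve marker genes (KLF17, SUSD2, DPPA5, TFAP2C) held more naïve than primed BAF155 peaks, against 54.8% of protein-coding gene windows, and all 4 windows of primed marker genes (ZIC2, SFRP2, SALL1, PTPRZ1) held more primed than naïve ones, against 30.6%. For BRG1, all 4 naïve marker windows held more naïve peaks, against 87.2%, while 0 of the 4 primed ones held more primed peaks, against 2.51%, and 1, SALL1, held more naïve ones (6 against 5). The paper shows ChIP-seq tracks of TFAP2C, SALL1 and PTPRZ1 from these same data as state-specific examples. For these genes the check is therefore not independent of the data.

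Sequences under some of the SOX2 peaks are shown first, since they are the sites at which the states are compared below. They are the SOX2 site shared by both states at TDGF1, the strongest SOX2 peak at CER1, SMAD7, GDF3 and ACVR2B, and a NODAL site that was chosen after its values were seen. The printed stretch is the 200 bp around the midpoint of the peak, on the plus strand of hg38 and 5′ to 3′, and capitals mark matches to a set of short motifs searched on both strands. The motifs were the SOX core (CATTGT or CTTTGT), the OCT octamer (ATGCAAAT), the OCT4-SOX2 composite element with up to 2 mismatches, FOXH1 (AATCCACA or AATACACA), the SMAD box (GTCTAGAC), a KLF motif (GGGNGNGGC) and a ZIC motif (CCTGCTG). The composite element begins with a SOX core, so these matches can overlap. In the order printed, the stretches lie at chr3:46574584-46574735 (from the end of the annotated first exon on), chr9:14722755-14722954, chr18:48959910-48960109, chr12:7694681-7694880, chr3:38536783-38536982 and chr10:70455395-70455594.
TDGF1 promoter site: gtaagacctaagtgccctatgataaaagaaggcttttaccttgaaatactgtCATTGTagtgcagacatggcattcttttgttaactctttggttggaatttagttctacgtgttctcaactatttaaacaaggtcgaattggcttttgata
CER1 promoter site: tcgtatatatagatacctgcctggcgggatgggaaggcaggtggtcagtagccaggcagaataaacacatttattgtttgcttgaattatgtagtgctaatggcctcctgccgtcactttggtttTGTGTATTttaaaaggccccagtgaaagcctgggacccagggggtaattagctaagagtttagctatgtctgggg
SMAD7 upstream site: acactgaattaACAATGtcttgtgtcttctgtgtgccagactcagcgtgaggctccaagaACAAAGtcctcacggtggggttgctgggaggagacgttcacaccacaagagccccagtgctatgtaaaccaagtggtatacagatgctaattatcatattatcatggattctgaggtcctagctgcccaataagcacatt
GDF3 site: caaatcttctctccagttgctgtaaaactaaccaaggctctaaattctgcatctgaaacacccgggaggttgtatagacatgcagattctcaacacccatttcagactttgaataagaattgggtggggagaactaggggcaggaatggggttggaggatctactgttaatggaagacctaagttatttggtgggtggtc
EXOG intronic site: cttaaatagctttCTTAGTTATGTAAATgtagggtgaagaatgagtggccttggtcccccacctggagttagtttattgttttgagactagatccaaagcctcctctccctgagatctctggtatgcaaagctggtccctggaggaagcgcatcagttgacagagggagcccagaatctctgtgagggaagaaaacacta
NODAL upstream site: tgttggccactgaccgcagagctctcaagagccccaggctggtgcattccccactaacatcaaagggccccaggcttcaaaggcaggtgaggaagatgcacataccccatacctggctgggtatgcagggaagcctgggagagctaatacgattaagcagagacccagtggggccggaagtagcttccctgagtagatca

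The TDGF1 and SMAD7 sites held the SOX core, which was found in 59.0% of all naïve and 59.5% of all primed SOX2 peaks. The CER1 site held no SOX core but a FOXH1 match, found in 2.12% of all primed SOX2 peaks. Over the loci, 4 of 11 primed SOX2 peaks held a FOXH1 match. Among naïve ones 3 of 5 did, against 3.92% of the naïve list. Apart from CER1, these were all peaks at LEFTY1/LEFTY2, at the same 3 sites in both states, so the naïve and primed shares are not independent. The EXOG site held a composite element, found in 11.3% of them. None of the motifs was found in the printed stretch at GDF3 or in the NODAL stretch, which is the midpoint of the strongest primed BRG1 peak at that locus.

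Naïve SOX2 peaks were found at 2 of 8 loci, LEFTY1/LEFTY2 and TDGF1, whereas primed SOX2 peaks were found at 6 of 8, with NODAL and SKIL as the loci that had neither. A naïve SOX2 peak was present in 13.2% of all protein-coding gene windows made by the same rule, a primed one in 42.6%, and both in 9.47%, against 2 of 8 loci with both. The 5 naïve and 11 primed SOX2 peaks gave a naïve to primed ratio of 0.455 (0.124 to 1.42, exact 95% interval for counting error only), beside 0.209 for the whole lists. When the primed list was cut to the length of the naïve one by fold, 4 primed peaks were left and the ratio turned to 1.25.

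Of the 5 SOX2 peaks called in naïve cells, 4 were shared with primed cells, against 47.9% of the naïve list. Conversely, 4 of 11 primed peaks overlapped a naïve one, against 10.0% of the primed list. The shared sites were 3 sites at LEFTY1/LEFTY2 and the TDGF1 promoter, and the other 7 primed peaks had no naïve counterpart.

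LEFTY1 and LEFTY2 encode secreted inhibitors that bind NODAL and its co-receptor. Their locus held 3 SOX2 peaks in each state, and 0.339% of protein-coding windows held as many or more naïve SOX2 peaks. The strongest of them, an intronic site, had a SOX2 fold enrichment over input of 16.2 in the naïve list, where it ranked 75 of 1940, and of 19.4 in the primed list, where it ranked 175 of 9290. It lies in an intron of the long annotated LEFTY1 transcript, and of a longer gene model that overlaps it, and 10.5 kb upstream of the start of the short one, and it was also the strongest BRG1, BAF155 and BRM peak of the locus. The BRG1 fold there was 4.93 in naïve and 4.32 in primed cells, the BAF155 fold was 4.38 and 5.62, and the naïve BRM fold was 4.37.

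An upstream LEFTY2 site, 4.47 kb before the annotated LEFTY2 start, had a SOX2 fold of 6.22 at rank 1317 in the naïve list and of 14.8 at rank 510 in the primed list. Its BAF region held BRG1 (3.76), BAF155 (4.03) and BRM (3.52) in naïve cells and BAF155 (5.08) without a BRG1 peak in primed cells. A near LEFTY1 site, 1.28 kb upstream of the short LEFTY1 transcript, had SOX2 folds of 6.32 (rank 1283) and 8.42 (rank 2823). Folds come from separate calls against separate inputs and the lists differ in length, so neither folds nor ranks show a difference between the states. Around LEFTY2 itself, the region over the promoter was called only in naïve cells (BRG1 2.76, BAF155 2.64). It is partly repeated sequence, with 26.7% of its 32-mers found more than once in hg38. At the long LEFTY1 start, a region was called only in primed cells (BAF155 3.20).

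**Figure D1:**
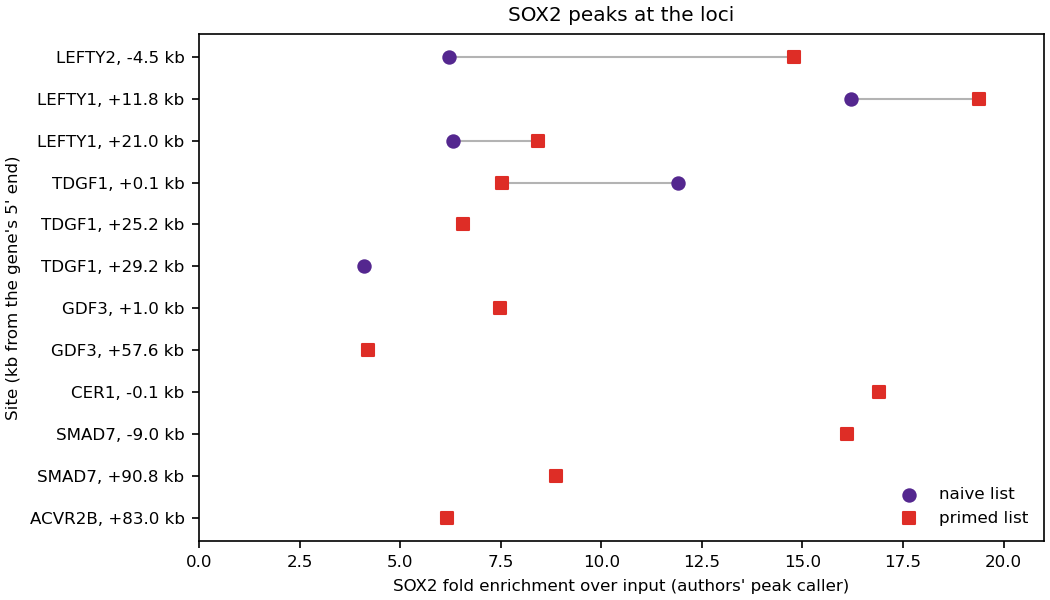
SOX2 peaks at the 8 loci, with the fold enrichment over input on the horizontal axis and each site named by its gene and the distance in kb from the annotated 5′ end. Circles are naïve peaks, squares are primed peaks, and a grey line joins the 4 sites called in both states. The highest fold is 19.4, at the LEFTY1 intronic site in primed cells.

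TDGF1, which encodes the co-receptor CRIPTO, had a SOX2 peak at its promoter in both states. The fold was 11.9 (rank 233 of 1940) in naïve and 7.53 (rank 3661 of 9290) in primed cells. The BAF region over it was common to both states, with folds of 3.02 and 3.16 for BRG1, 2.92 and 3.63 for BAF155 and 2.84 for naïve BRM. A weak naïve SOX2 peak (4.11, rank 1911) and a primed SOX2 peak (6.56, rank 4859) lay 29.2 and 25.2 kb downstream of the TDGF1 start, in introns of LRRC2, and neither was called in the other state. The first of them is partly repeated sequence, with 28.2% of its 32-mers found more than once in hg38.

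CER1 encodes a secreted antagonist of NODAL, BMP and WNT ligands. A primed SOX2 peak with a fold of 16.9, rank 313 of 9290, was centred 122 bp upstream of its start, in a BAF region called only in primed cells (BRG1 3.47, BAF155 4.95). No naïve peak of any antibody was called at the CER1 promoter. All 3 naïve peaks of this locus were at the promoter of the neighbour ZDHHC21, 29.4 kb away, where BRG1 (2.78), BAF155 (4.01) and BRM (3.93) were called, and primed BRG1 (3.70) and BAF155 (4.43) as well.

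SMAD7 encodes the inhibitory SMAD that is switched on by the signals it limits. Its primed SOX2 peak, with a fold of 16.1 at rank 365, lay 9.04 kb upstream in a BAF region common to both states, which held BRG1 (3.50 naïve, 4.41 primed), BAF155 (3.01 and 4.72) and naïve BRM (3.38). A further primed SOX2 peak (8.86) lay at the edge of the window, 0.275 kb from an annotated start of CTIF, in a region called only in primed cells.

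GDF3, a TGF-β family ligand related to NODAL, had a primed SOX2 peak with a fold of 7.47 (rank 3696) inside the gene, 0.994 kb from its start, in a common BAF region. Its other primed SOX2 peak (4.20) was 57.6 kb away in an annotated pseudogene. The primed SOX2 peak of the ACVR2B window had a fold of 6.17 and lay 83.0 kb from the ACVR2B start, in an intron of the neighbouring gene EXOG, outside any BAF region. ACVR2B encodes a type II activin receptor, and no SOX2 peak lay nearer to it.

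BRG1 and BAF155 peaks were present at all 8 loci in both states. Most protein-coding windows held them too. Those without a BRG1 peak made up 6.35% in naïve and 28.0% in primed cells. Those without a BAF155 peak made up 7% and 6.31%. In total, 79 naïve and 28 primed BRG1 peaks gave a ratio of 2.82 (1.81 to 4.51), below the 3.71 of the whole lists and the 4.26 over all protein-coding windows. For BAF155, 91 naïve and 63 primed peaks gave 1.44 (1.04 to 2.02), beside 1.07 and 1.28. More naïve than primed BRG1 peaks were counted at 6 of 8 loci, against 87.2% of protein-coding windows, and more primed ones at CER1 and ACVR2B, 2 of 8, against 2.51%. At the ACVR2B promoter, however, a single broad naïve peak (-0.758 to 1.866 kb) covers all the separate primed ones. The other BRG1 site of that window, at -56.3 kb, was called in both states, so its count does not show sites bound only in primed cells. For BAF155, 4 of 8 loci had more naïve peaks, against 54.8% of windows, and 2 of 8, LEFTY1/LEFTY2 and CER1, had more primed ones, against 30.6%.

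These directions depend on where the lists end. With both BRG1 lists cut to equal length by fold, the ratio was 0.679, and with a fold of at least 4 it was 0.750 for BRG1 and 0.353 for BAF155. With −log10 q of at least 3, in turn, the BRG1 ratio was 4.40, from 22 naïve and 5 primed peaks. With 100 kb flanks, LEFTY1/LEFTY2 had 20 naïve and 17 primed BAF155 peaks, and ACVR2B had 4 BRG1 peaks in each state, so the primed majority of these counts did not hold there. The median fold of the peaks at the loci was 2.89 for naïve BRG1 and 2.81 for naïve BAF155, against 3.49 and 3.39 in the primed lists, which is close to the medians of the whole lists. The naïve lists reached down to lower folds, 2.35 for BRG1 and 2.37 for BAF155 at the loci, against 2.99 and 2.63.

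**Figure D2:**
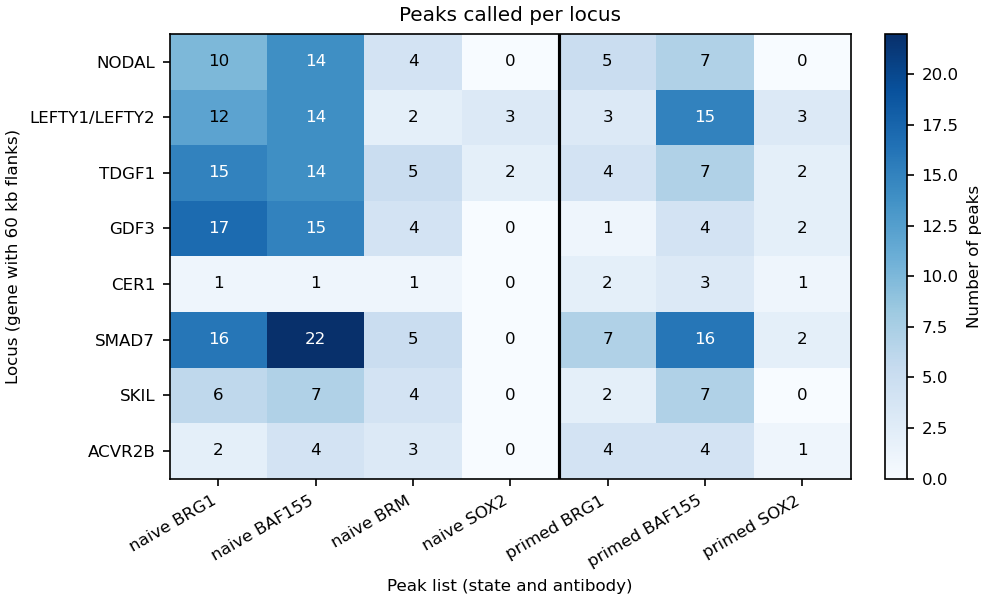
Number of peaks per locus (rows) in each of the 7 lists (columns), with darker cells for more peaks and a line between the naïve and primed lists. SMAD7 holds the highest count, 22 naïve BAF155 peaks, and CER1 and ACVR2B hold few peaks of any kind.

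SMAD7 had the most BAF155 peaks, 22 in naïve and 16 in primed cells, with 16 and 7 BRG1 peaks. GDF3 had the most naïve BRG1 peaks, 17, and only 1 primed one, with 15 and 4 BAF155 peaks. With lists cut to equal length by fold, GDF3 had 1 BRG1 peak in each state and 14 and 4 BAF155 peaks. With a fold of at least 4, no BRG1 or BAF155 peak was left there in either state. TDGF1 had 15 and 4 BRG1 and 14 and 7 BAF155 peaks. NODAL lay between them, with 10 and 5 BRG1 and 14 and 7 BAF155 peaks. The GDF3 window also holds DPPA3, a gene of early germ cells and naïve cells, and 4 of its 19 regions had GDF3 as the nearest gene.

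At LEFTY1/LEFTY2 the counts of the subunits differed, as they did in the whole lists, with naïve to primed ratios of 3.71 for BRG1 and 1.07 for BAF155. With lists of equal length, this locus had 5 naïve and 3 primed BRG1 peaks. The full lists gave the following counts. There were 12 naïve and 3 primed BRG1 peaks but 14 naïve and 15 primed BAF155 peaks, and 4.10% of protein-coding windows had at least as many primed BAF155 peaks. SKIL, which encodes the SMAD corepressor SnoN, had 6 and 2 BRG1 peaks and 7 BAF155 peaks in each state. CER1 had 1 naïve and 2 primed BRG1 peaks, and ACVR2B had 2 and 4. Over the loci, all 28 primed BRG1 peaks overlapped a primed BAF155 peak, against 98.7% of the whole list. Of the 63 primed BAF155 peaks, 25 overlapped BRG1 (39.7%, 27.6 to 52.8%), against 24.9% of the whole list. In naïve cells, 65 of 91 BAF155 peaks overlapped BRG1 (71.4%, 61.0 to 80.4%), against 66.4%.

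Per length, the loci were denser than the average protein-coding window in each of the 7 lists. Naïve BRG1 peaks numbered 6.82 per 100 kb, against a mean of 4.50, and naïve BRM peaks 2.42 against 1.44. Primed BRG1 peaks numbered 2.42 per 100 kb, against 1.00, and primed SOX2 peaks 0.950 against 0.380. Windows of neighbouring genes overlap, so these means do not stand for independent windows.

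**Figure D3:**
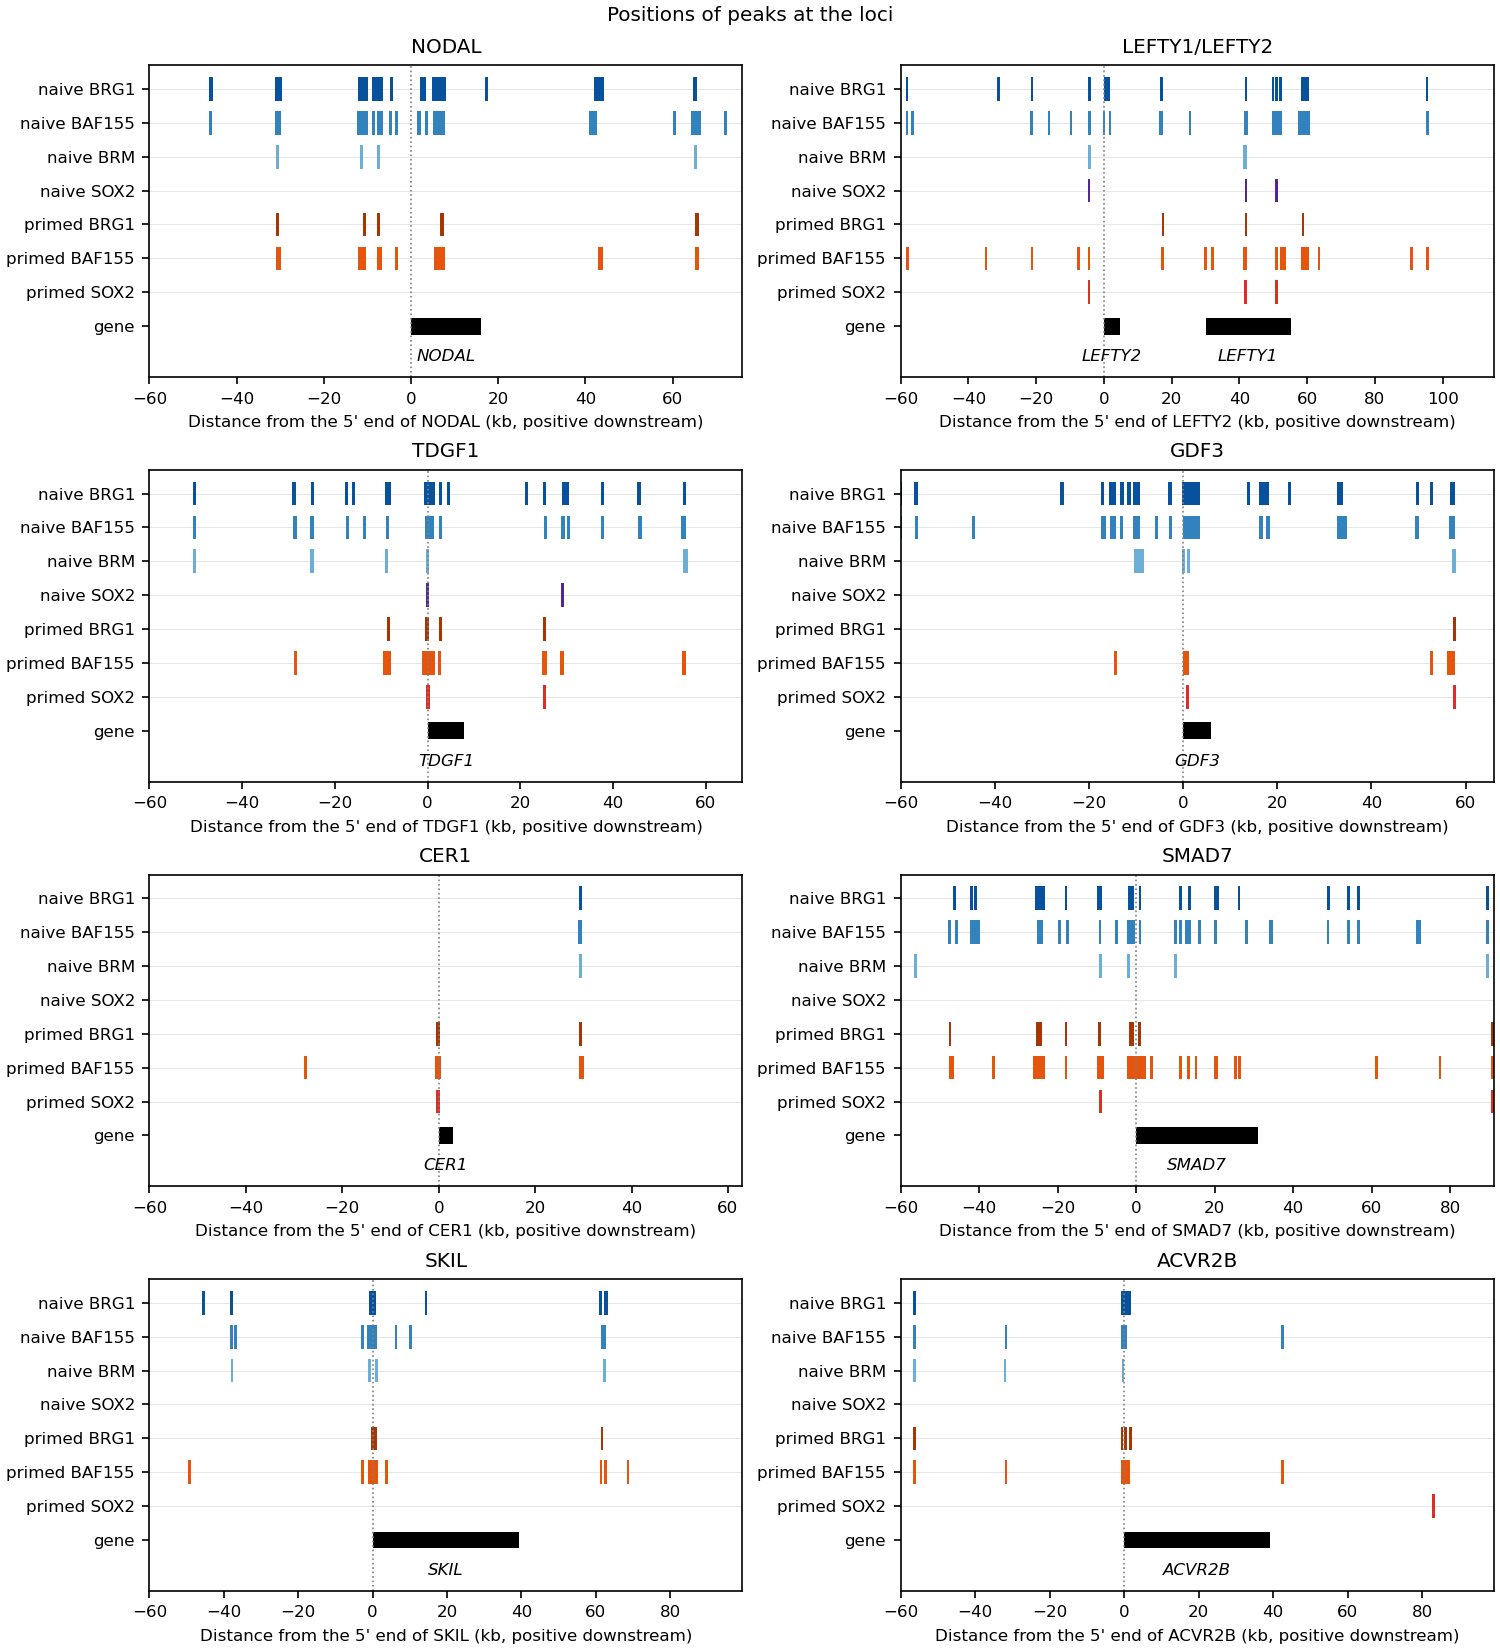
Positions of the peaks at each locus, with the distance in kb from the annotated 5′ end of the gene on the horizontal axis and a row for each list. The black bar is the gene body, and peaks narrower than 0.7 kb are drawn at that width. The LEFTY panel is measured from LEFTY2, and the 3 SOX2 sites there stand in line in both states.

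BRG1 and BAF155 peaks of a state were merged into BAF regions and classed by whether at least 25% of either region was covered by a region of the other state. The loci held 118 of 106424 BAF regions, of which 55 were naïve-only (46.6%, 37.4 to 56.0%), 44 were common (37.3%, 28.6 to 46.7%) and 19 were primed-only (16.1%, 9.98 to 24.0%). Over the genome the shares were 45.4%, 26.1% and 28.5%. NODAL, TDGF1 and GDF3 had no primed-only region among 14, 16 and 19, CER1 had no naïve-only region among 3, and all 4 regions at ACVR2B were common. The other primed-only regions were 7 at LEFTY1/LEFTY2, 7 at SMAD7 and 3 at SKIL.

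**Figure D4:**
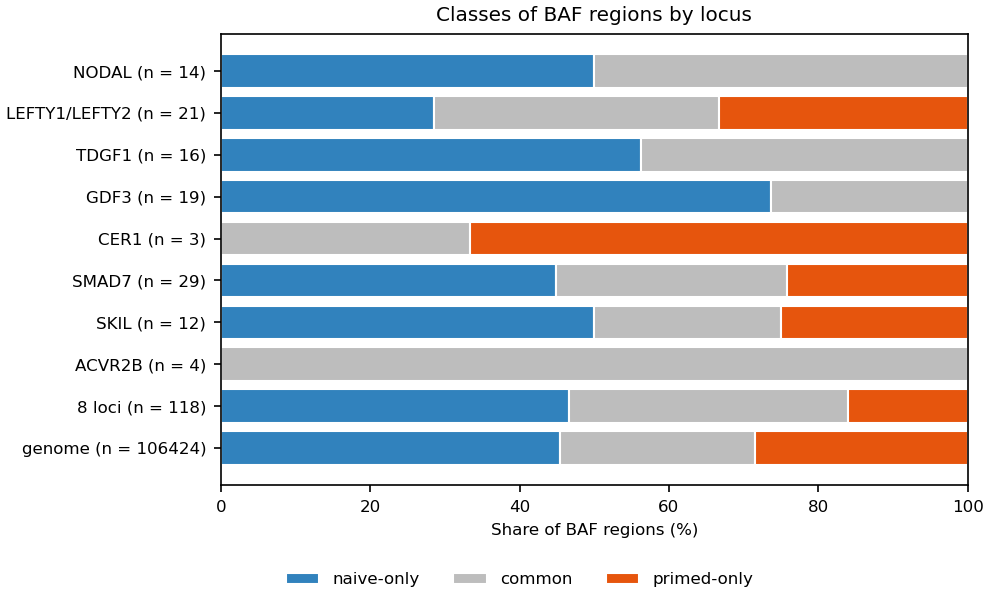
Share of BAF regions that were naïve-only, common or primed-only at each locus, over the 8 loci together and over the genome, in percent, with the number of regions beside each name. Primed-only regions make up 16.1% at the loci and 28.5% over the genome.

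Common regions were wider, with a median of 1530 bp against 470 bp where a region was naïve-only and 401 bp where it was primed-only. The same order held over the genome, with medians of 1113, 422 and 374 bp. A common region joins the overlapping regions of both states, so its greater width is partly set by construction. At promoters, within 1 kb of any annotated transcription start, lay 18 of the 44 common regions (40.9%, 26.3 to 56.8%), against 52.2% over the genome. Of the 55 naïve-only regions 7 did so (12.7%, 5.27 to 24.5%), against 13.7%, and of the 19 that were primed-only 6 did (31.6%, 12.6 to 56.6%), against 14.6%. The nearest protein-coding start was that of a member for 59 of the 118 regions, so the other regions were nearer to a neighbouring gene. At member promoters there were 13 regions by the midpoint rule. GDF3 had 0 of them, although a common region whose midpoint lay 1.76 kb from its start reached over that start. It held naïve BRG1 (2.80), BAF155 (3.02 naïve, 3.78 primed), naïve BRM (3.07) and the primed SOX2 peak inside the gene.

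Among the member promoters, SMAD7 had a common region of 4956 bp at its annotated start, with BRG1 at 3.24 and 3.60, BAF155 at 2.95 and 4.12 and naïve BRM at 3.01. SKIL had a common region with BRG1 at 3.06 and 3.56, BAF155 at 3.03 and 4.15 and BRM at 3.26. ACVR2B had a common region with BRG1 at 3.09 and 3.57, BAF155 at 2.86 and 3.65 and BRM at 3.13. All 3 promoters thus carried both subunits in both states, with BRM in naïve cells, and no SOX2 peak.

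Further inside SMAD7, the promoter of a shorter transcript held a common region without primed BRG1 (naïve BRG1 2.95, BAF155 3.01 and 3.07). An inner SKIL promoter held a primed-only region (BAF155 2.69). TDGF1 had a common region at an inner promoter (BRG1 2.59 and 3.14, BAF155 2.58 and 3.83) and a naïve-only one at another (BRG1 2.59). At the short LEFTY1 transcript, the promoter region was classed primed-only (BAF155 3.02) although naïve BRG1 and BAF155 peaks with folds of 3.26 and 2.71 touched it over less than the required share, so that class rests on the overlap rule. In that region, 25.2% of the 32-mers are found more than once in hg38.

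NODAL, the ligand itself, had 14 BAF regions, 7 naïve-only and 7 common. The paper shows ChIP-seq tracks of NODAL as a representative target of enhancers bound by OCT4 and BAF in both states. Its BAF peaks come from these same data, so the common regions here are not independent of that example. The common region at the start of the shorter NODAL transcript spanned 3188 bp, with BRG1 at 2.91 and 3.59 and BAF155 at 2.79 and 4.01. The strongest primed peaks of the locus lay upstream of the gene, BRG1 with a fold of 5.25 at -7.54 kb (rank 662 of 15611) and BAF155 with 5.44 at -7.29 kb (rank 2043 of 58352). The common region there also held naïve BRG1 (3.05), BAF155 (2.82) and BRM (2.63). A second common region 11.2 kb upstream held BRG1 at 3.04 and 3.52, BAF155 at 3.02 and 3.36 and BRM at 3.03. Within the gene, 2 naïve-only regions lay in the intron, 2.35 and 3.58 kb from the annotated start. The SOX2 lists had no peak at any of these, which says only that none passed the authors' threshold.

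The strongest BAF site of the ACVR2B window was in an intron of XYLB, at -56.3 kb from the ACVR2B start. It ranked 275 of 57884 by fold for naïve BRG1 (5.71) and 405 of 15611 for primed BRG1 (5.73), with BAF155 at 5.42 and 5.32 and naïve BRM at 4.52. At SMAD7 the strongest naïve peaks, BRG1 at 4.65 and BAF155 at 5.15, were 89.5 and 89.6 kb away in an exon of CTIF and naïve-only. The strongest naïve BRG1 peak at SKIL (3.34) was nearest to PRKCI, and at NODAL (3.37) nearest to PALD1. At these loci the strongest naïve BRG1 peak thus had a neighbour, not the member, as its nearest gene.

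BRM, the alternative ATPase, was called at all 8 loci in naïve cells, with 28 peaks, against 70.2% of protein-coding windows with a naïve BRM peak. The counts ranged from 1 at CER1 to 5 at TDGF1 and SMAD7. None of the 167 primed BRM peaks lay at the loci, and 99.4% of protein-coding windows had none. Of the 28 naïve BRM peaks, 27 were in naïve BAF regions, against 94.3% of the BRM list. A BRM peak was in 26 of 99 naïve-only or common regions (26.3%, 17.9 to 36.1%), against 20.7% over the genome. The common regions held 20 of these 26, in 45.5% of their number, and the naïve-only regions 6 (10.9%). The same shares over the genome were 32.0% and 14.2%.

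All 5 naïve SOX2 peaks were in naïve BAF regions, against 93.0% of the naïve list, and all 5 were also in primed ones, against 61.2%. Of the 11 primed SOX2 peaks, 10 were in primed BAF regions, against 88.4%, and 8 were in naïve ones, against 41.6%. Counted from the regions, 6 of 99 naïve-only or common regions held naïve SOX2 (6.06%, 2.26 to 12.7%), against 2.33% over the genome. The sixth was a region at the edge of the GDF3 window whose SOX2 peak, with a fold of 7.80, lies outside it. Primed SOX2 was in 10 of 63 primed-only or common regions (15.9%, 7.88 to 27.3%), against 13.7%, of which 8 were common and 2 primed-only. None of the 55 naïve-only regions at the loci held SOX2 of either state, where the genome shares were 1.30% for naïve and 0.434% for primed SOX2.

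A list of 29 other genes of the pathway was read by the same rule. Naïve SOX2 peaks were in 8 of 29 windows, against 13.2% of protein-coding windows, and primed ones in 20, against 42.6%, and all 8 with naïve SOX2 also had primed SOX2, against 9.47% with both. More naïve than primed BRG1 peaks were counted in 26 windows, near the background of 87.2%. More naïve BAF155 peaks were counted in 12 windows, against 54.8%, and more primed ones in 13, against 30.6%. The 4 receptor and co-receptor genes ACVR1B, ACVR1C, ACVR2A and CFC1 had no SOX2 peak in either state, and CFC1 had no peak in any list. Among SMADs and nuclear partners, 8 of 10 windows held primed SOX2, with 4 of the peaks at SMAD3, which encodes a signal-carrying SMAD. Of 5 target genes, 4 held primed SOX2 and 3 naïve SOX2, and GSC, a homeobox target gene, had 1 naïve and 4 primed peaks.

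The windows most like the NODAL locus by their 7 counts, measured as the Euclidean distance between log2(count + 1) values, were SREBF2 (0.231), TMEM121 (0.360) and BTBD19 (0.387). Those most like LEFTY1/LEFTY2 were WWTR1 (0.718), IMMP2L (0.760) and ERBB4 (0.808). The LEFTY distances are larger than those of NODAL, and none of these 3 windows held 3 naïve SOX2 peaks.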

How the data were processed

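ChIP-seq peak lists of WIBR3 cells were read from 10 of the 14 samples, and the 4 inputs served the authors' peak calling. Per the methods of the study, reads were trimmed with trim_galore, aligned to hg38 with bowtie2 and stripped of duplicates, and peaks were called with MACS2 against input, broad for BAF subunits (75 bp single-end reads) and narrow for SOX2 (150 bp paired-end reads). The submitters' processing notes name Bowtie2 2.3.4, FastQC 0.10.1 and SAMtools 0.1.19. The deposited lists give positions and, apart from primed BRM and the second SOX2 libraries, the authors' score, fold over input (a linear ratio) and −log10 p and q. Read totals were not used here.

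A peak counted for a locus where at least 1 bp lay in the gene body with 60 kb flanks. BRG1 and BAF155 peaks of a state were all merged into BAF regions, whereas the study describes merging the concordant ones, so these regions differ from those of the study. Overlap meant 25% of either region, as in the study. Promoters were midpoints within 1 kb of a GENCODE 44 start of any gene. Distances are from the annotated 5′ end of the gene, which for NODAL and LEFTY1 belongs to a long transcript. Intervals are exact Clopper-Pearson at 95%, for ratios through the binomial share, and cover counting error only. The overlap rules were tested on simulated intervals. Python 3.11.15, pandas 2.3.3 and pysam 0.24.0 were used. Some of the peak sequences planned for print are not reported here. No test between states was made, because each BAF group was 1 sample and both SOX2 libraries of a state have the same list. All SOX2 peaks, promoter BAF regions of the members and the strongest BAF peaks per locus were to be named. Members, gene lists and motifs were chosen with earlier results of these data known. Alternatives were other cut-offs, equal list lengths, flanks of 20 and 100 kb, midpoints, other overlap rules, single subunits and 2 kb promoters.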

Additional observations from a re-analysis of the deposited data

How the results depend on the processing

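The counts depend most on where each list ends. With a fold of at least 4, the BRG1, BAF155 and BRM peaks at the loci numbered 3, 6 and 2 in naïve and 4 (BRG1) and 17 (BAF155) in primed cells, the naïve to primed ratios turned to 0.750 (BRG1) and 0.353 (BAF155), and naïve-only, common and primed-only regions made up 10.5%, 21.1% and 68.4%. Naïve SOX2 was then in 33.3% of naïve and primed SOX2 in 29.4% of primed BAF regions, 40.0% of naïve SOX2 peaks lay in naïve and 40.0% in primed regions, and 18.2% and 45.5% of primed ones did. The naïve minus primed difference turned to -1 (BRG1) and -4 (BAF155) at NODAL and, for BAF155, to -2 at TDGF1 and SMAD7. With −log10 q of at least 3, the lists held 22, 23 and 3 naïve BRG1, BAF155 and BRM peaks and 5 and 35 primed BRG1 and BAF155 peaks, the BRG1 ratio was 4.40 and the BAF155 ratio turned to 0.657, naïve-only and primed-only shares were 28.0% and 34.0%, and BRM and naïve SOX2 were in 9.09% and 15.2% of naïve regions. The difference turned to 1 at ACVR2B (BRG1) and to -3 at NODAL and -1 at TDGF1 (BAF155). With lists of equal length, 19 naïve BRG1 and 4 primed SOX2 peaks were left, the ratios turned to 0.679 (BRG1) and 1.25 (SOX2), primed SOX2 was in 6.35% of primed regions with 100% of its peaks in them, and the BRG1 difference turned to -3 at NODAL, -2 at TDGF1 and -1 at SKIL. These cut-offs keep fewer peaks by construction.

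With 20 kb flanks there were 44, 53 and 15 naïve BRG1, BAF155 and BRM and 36 primed BAF155 peaks, and 100% of primed SOX2 peaks lay in primed BAF regions. With 100 kb flanks there were 8 naïve SOX2 peaks, and the BAF155 difference at LEFTY1/LEFTY2 turned to 3. An overlap of 25% of both regions put BRM in 13.9% and naïve SOX2 in 0.990% of naïve regions and 20.0% of naïve SOX2 peaks in naïve regions. An overlap of 50% of both gave 26.8% primed-only and 18.8% common regions, BRM in 7.92%, naïve SOX2 in 0% and primed SOX2 in 3.17% of regions, and 0%, 20.0%, 9.09% and 36.4% of SOX2 peaks in BAF (naïve in naïve, naïve in primed, primed in naïve, primed in primed). By construction these rules drop narrow peaks in wide regions: the naïve SOX2 and BRM lists had median widths of 283 and 318 bp, against 664 bp for the BAF regions at the loci. With BRG1 alone, naïve-only, primed-only and common shares were 68.7%, 4.82% and 26.5%. With 2 kb promoters, 25.5% of naïve-only regions lay at promoters. The other 109 values of these counts, ratios and shares under the alternatives stayed within the limits set for a move: 1.5 times for a count, and the exact 95% interval for a share or ratio. The planned omission of a SOX2 library could not be run, since the lists are identical. No paired analysis was possible because the only groups that share replicate numbers, naïve and primed SOX2, have identical lists for both numbers, and no result came from a test.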
